A study of Homo sapiens with 6 samples.

Results

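Accessible chromatin was examined around 10 genes that NF-kB induces and that in part shut it down again: NFKBIA, NFKBIE, NFKBIZ, BCL3, TNFAIP3, TNIP1, TRAF1, ICAM1, BCL2A1 and CD83. They are 10 of 19970 protein-coding genes, chosen by name. The series holds ATAC-seq peak lists of 6 libraries of KMS-11, an established line of human multiple myeloma, a cancer of plasma cells. In ATAC-seq, a transposase cuts open chromatin and leaves sequencing tags there, so that a peak marks DNA that was accessible. The ATF4 knockdown group has 3 libraries, titled LentiV2_ATF4g3 after 1 construct against ATF4, a transcription factor of the integrated stress response. The control group has 3 libraries with the treatment LentiV2. All 6 carry the genotype label WT and are titled as biological replicates. The labels do not say whether these came from separate cultures, so the p-values measure the spread between these libraries. The lists hold no ATF4 RNA or protein, and the knockdown itself was not checked here.

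NF-kB is a family of dimeric transcription factors held in the cytoplasm by inhibitors of the IkB family. Signals from TNF, Toll-like or CD40-type receptors activate a kinase that has the inhibitors degraded, and the freed dimers bind kappaB sites in DNA. Among the first genes they switch on are their own inhibitors and the ubiquitin-editing enzyme A20, which end the response. In plasma cell myeloma the pathway is often active without outside signals and supports survival. Other targets serve survival, cell adhesion and antigen presentation.

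Every peak within 50 kb of each gene body was used, and overlapping peaks of the 6 libraries were merged into 1 region. The 10 windows held 191 of 216003 regions. A library was said to hold a region when one of its overlapping peaks reached 2 in −log10 q. Positions are given in kb from the most upstream start of the gene in a RefSeq promoter table (GRCh38.p14, the assembly of hg38), with + downstream and - upstream. NFKBIE has no entry in that table, so its positions run along the chromosome from the end of the gene with the strongest region.

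The RefSeq promoters hold 14 starts for 9 of the 10 genes, each with 250 bases before and 50 after the start. They were searched on both strands for the kappaB consensus and for TGATGNAA, the core of the composite element that ATF4 binds with C/EBP proteins. The consensus was taken as GGGRNWYYCC, with R for A or G, W for A or T, Y for C or T and N for any base. The kappaB consensus was in 7 of the 14 promoters, against 5.91% of 34961 promoters in the table. TGATGNAA was in 2 of 14, against 3.62%. TGACGTCA, the CRE palindrome, and TGANTCA, the AP-1 site, were in 0 of 14, against 1.85% and 7.68%. A match is a run of letters and not a measured binding site. The promoters of 4 feedback regulators with a kappaB match and an accessible region over the start are shown as examples. NFKBIZ and CD83 also had both and are not shown. The promoter of BCL2A1 is shown because no region lay over it. Capitals mark kappaB matches, and in BCL2A1 the TGATGNAA match, read 5′ to 3′ on the strand of the gene.
NFKBIA (chr14:35404700-35404999, minus strand): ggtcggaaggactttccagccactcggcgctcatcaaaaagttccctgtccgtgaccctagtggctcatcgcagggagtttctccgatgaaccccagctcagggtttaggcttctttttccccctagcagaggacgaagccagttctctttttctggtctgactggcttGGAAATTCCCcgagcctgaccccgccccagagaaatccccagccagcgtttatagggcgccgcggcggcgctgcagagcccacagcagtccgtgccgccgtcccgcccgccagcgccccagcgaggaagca
TNFAIP3 (chr6:137867009-137867308, plus strand): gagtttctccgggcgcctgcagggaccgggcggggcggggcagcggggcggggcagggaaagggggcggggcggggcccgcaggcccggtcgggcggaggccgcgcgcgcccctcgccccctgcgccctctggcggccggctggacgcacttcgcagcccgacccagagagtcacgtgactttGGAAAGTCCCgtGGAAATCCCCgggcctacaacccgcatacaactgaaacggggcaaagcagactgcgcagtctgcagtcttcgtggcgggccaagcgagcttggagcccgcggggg
TNIP1 (chr5:151080985-151081284, minus strand): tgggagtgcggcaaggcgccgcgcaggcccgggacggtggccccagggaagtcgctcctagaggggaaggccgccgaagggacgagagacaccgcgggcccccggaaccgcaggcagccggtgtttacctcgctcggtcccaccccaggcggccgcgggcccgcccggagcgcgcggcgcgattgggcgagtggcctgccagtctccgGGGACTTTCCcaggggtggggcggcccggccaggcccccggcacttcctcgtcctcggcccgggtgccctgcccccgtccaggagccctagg
BCL3 (chr19:44748458-44748757, plus strand): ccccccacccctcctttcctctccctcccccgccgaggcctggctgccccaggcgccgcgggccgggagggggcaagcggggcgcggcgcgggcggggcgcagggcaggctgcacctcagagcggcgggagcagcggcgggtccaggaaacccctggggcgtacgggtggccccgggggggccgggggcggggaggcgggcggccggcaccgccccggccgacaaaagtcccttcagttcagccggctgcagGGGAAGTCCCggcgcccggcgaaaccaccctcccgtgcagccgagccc
BCL2A1 (chr15:79971147-79971446, minus strand): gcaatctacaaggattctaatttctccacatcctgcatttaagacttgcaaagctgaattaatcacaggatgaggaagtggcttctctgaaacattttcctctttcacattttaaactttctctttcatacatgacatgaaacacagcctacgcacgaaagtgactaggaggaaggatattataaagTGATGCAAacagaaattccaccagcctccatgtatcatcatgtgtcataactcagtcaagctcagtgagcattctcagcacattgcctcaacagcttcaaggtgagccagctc

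Counting from the start as +1, the match in NFKBIA began at -81, those in TNFAIP3 at -67 and -55, that in TNIP1 at -42 and that in BCL3 at 3. The TGATGCAA of BCL2A1 began at -63. The first NFKBIZ promoter held GGGAATTTCC at -223 and the second GGGGTTTCCC at -239. The second CD83 promoter held 3 overlapping matches, the first of them GGGGAATCCC at -76. ICAM1, TRAF1 and BCL2A1 had no full match to the kappaB consensus in these windows. The ICAM1 window holds TGGAAATTCC, which departs from the consensus at its first base, so a missing match does not show a missing site. TRAF1 had TGATGNAA at its second start, as TTTCATCA at 3.

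Both groups had open chromatin at these genes. Of the 191 regions, 95 (49.7%) were found in all 6 libraries, against 28.7% of all regions. The knockdown libraries had 120, 125 and 126 of the 191, against 137, 146 and 141 in the control libraries. Every knockdown library thus had fewer than every control library, and over all regions the groups did not overlap either, with 103198, 102358 and 107276 in knockdown libraries and 116071, 116632 and 108170 in control libraries. More control than knockdown libraries held the region in 55 cases (28.8%), and more knockdown than control libraries in 30 (15.7%). For all regions these shares were 34.4% and 31.2%.

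Depth moved with the groups. The background pileup, the number of tags the peak caller takes as a library's floor, was 2.51, 2.15 and 2.51 in knockdown libraries and 3.19, 2.79 and 3.52 in control libraries. Peaks covered 63.5 ± 0.46 Mb in knockdown libraries and 69.3 ± 2.00 Mb in control libraries (SD, n = 3 each). The exact two-sided permutation p was 0.1, the smallest that 3 against 3 can give. Tag counts at summits are given below without correction for depth. The part of depth in the results below was not tested. The lists matched the labelled cell type in that 9 of 10 plasma cell markers had a region over the start in all 6 libraries, among them SDC1, TNFRSF17, PRDM1, XBP1 and IRF4, and JCHAIN in 4. Of the myeloid markers 0 of 4 had one (CD14, SPI1, LYZ and CSF1R), and of the T cell markers 1 of 4, CD3E. EPCAM had one in all 6, KRT8 in 2, KRT19 and CDH1 in 0.

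Covered length, rank and width were compared, each by limma across all genes or regions with Benjamini-Hochberg adjustment and a threshold of 0.05. The covered length is the DNA under listed peaks within 50 kb of the gene body, scaled to equal library totals. The rank of a region is its place by fold over local background among the 62070 regions found in all 6 libraries, given as a percentile and tested as a normal score. The width is the DNA under the peaks of a region.

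TNIP1 was the only member whose covered length passed the test. TNIP1 encodes ABIN1, an adaptor that binds A20 and ubiquitin chains and dampens NF-kB. Its window held 7757, 7213 and 7326 bp of scaled covered DNA in knockdown libraries, against 9690, 9549 and 8965 bp in control libraries. The groups did not overlap. The log2 difference was -0.33 (SE 0.07, limma adjusted p = 0.0238). By this test 2.67% of 19686 genes were lower in knockdown and 2.88% higher, 5.55% in all. Groups that did not overlap were lower in knockdown at 16.8% of genes and higher at 9.63%. The call was lost without knockdown library 2 (adjusted p = 0.0580) and without control library 1, 2 or 3 (0.103, 0.0806 and 0.0561), while the difference stayed between -0.36 and -0.31. It was also lost with peaks of −log10 q 5 or more (-0.14, adjusted p = 0.183) and in windows of 10 kb around the gene body (-0.33, 0.106) or its ends (-0.32, 0.146).

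**Figure D1:**
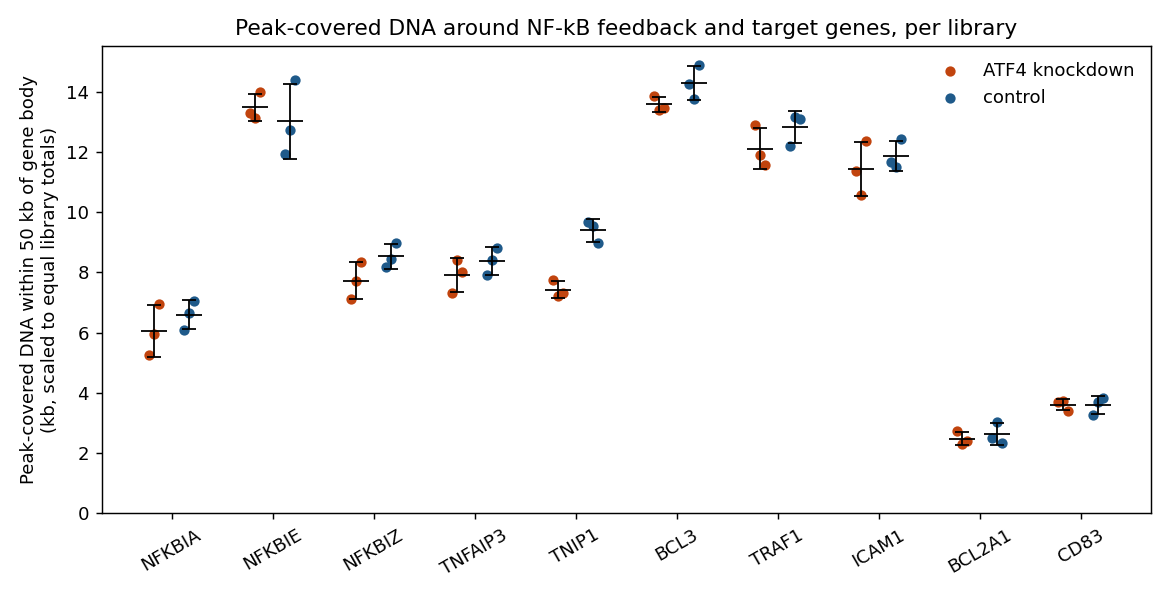
Scaled covered DNA (kb) within 50 kb of each gene body, 1 point per library, with the mean and SD of the 3 libraries of each group as black bars. Only at TNIP1 do the knockdown points (7213 to 7757 bp) all lie below the control points (8965 to 9690 bp); the other 9 genes overlap.

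The TNIP1 window held fewer regions in knockdown libraries. Of 20 regions in its window, 12 were found in each knockdown library, against 17, 18 and 16 in control libraries. One, at -5.4 kb (chr5:151086262-151086676), inside the annotated gene, was found in all 3 control libraries with a −log10 q of 6.49, 7.15 and 5.41 and listed in 0 knockdown libraries. It held 52, 55 and 51 tags at the summit in control libraries, a weak peak in a stretch with a local background 6.27 to 7.81 times the library's floor. The regions at +21.7, +12.1, -13.1 and -45.0 kb were picked after their values were seen. They come from the same peaks as the covered length and are no separate evidence for its difference. Those at +21.7 kb and +12.1 kb were found in 0 and 1 knockdown libraries, against 3 control libraries each. The region at -13.1 kb was 778, 716 and 814 bp wide in knockdown libraries, against 1193, 1125 and 1266 bp in control libraries. At -45.0 kb, inside the neighbour ANXA6, the widths were 713, 785 and 581 bp in knockdown libraries and 1202, 1074 and 1202 bp in control libraries. Neither width passed the test after centring on the library median (limma adjusted p = 0.0777 and 0.113). The region over the TNIP1 start stood at percentile 76.4, 65.2 and 74.7 in knockdown libraries and 65.2, 54.8 and 57.7 in control libraries, a rank difference of 0.36 that did not pass (adjusted p = 0.204). The highest-ranked other region, at +29.1 kb in the gene, stood at 71.0, 71.8 and 86.8 in knockdown libraries and 51.1, 72.1 and 67.7 in control libraries (adjusted p = 0.254).

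The other 9 members had covered lengths that did not pass, and 8 of all 10 had a difference below 0. The median over the 10 was -0.08, against -0.04 over all genes, 58.4% of which lay below 0. This direction turned with the peaks counted. With peaks of −log10 q 2 or more, 3 of 10 lay below 0 (TNIP1, TRAF1 and BCL2A1) and the median of all genes was 0.03. With 5 or more, 4 of 10 lay below 0 (NFKBIA, TNFAIP3, TNIP1 and BCL2A1) and the median of all genes was 0.10. NFKBIZ had 7122, 7712 and 8354 bp in knockdown libraries and 8175, 8438 and 8984 bp in control libraries (log2 difference -0.14, SE 0.08, limma adjusted p = 0.345). NFKBIA had 5256, 5947 and 6956 bp in knockdown libraries and 6103, 6652 and 7043 bp in control libraries (-0.13, SE 0.11, adjusted p = 0.528). CD83 and NFKBIE lay nearest to no difference or above it, at 0.01 and 0.05. The remaining 5 differences ran between -0.08 and -0.05.

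Without scaling to library totals the count changed. Then 4 members, TNIP1, BCL3, NFKBIZ and TRAF1, were lower and 0 higher, but so were 4136 of all genes with 457 higher, against 525 lower and 567 higher with scaling. The median of all genes then moved to -0.16. BCL3 covered 13280, 12713 and 12954 bp unscaled in knockdown libraries and 15179, 14547 and 15034 bp in control libraries. NFKBIZ covered 6817, 7314 and 8036 bp unscaled in knockdown libraries and 8704, 8930 and 9070 bp in control libraries. TRAF1 covered 12329, 11288 and 11120 bp unscaled in knockdown libraries and 13002, 13947 and 13211 bp in control libraries. In all 3 windows the unscaled groups did not overlap, and 40.1% of all genes were lower in this way.

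The rank of single regions gave a sharper picture at TNFAIP3, the gene of A20, which removes activating ubiquitin chains and is itself induced by NF-kB. Of the 95 member regions found in all 6 libraries, 4 were lower in knockdown and 1 higher, all of them at TNFAIP3, NFKBIZ or BCL3. Over all 62070 such regions 3.33% were lower and 2.9% higher, 6.23% in all, so the member counts lie near the background. Among the member regions, 30 (31.6%) had an unadjusted p under 0.05, against 27.7% over all. The median difference was 0.19 over the 95 and 0.03 over all.

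The TNFAIP3 region at +25.4 kb (chr6:137892155-137893066), beyond the 3′ end of the gene, had the lowest difference of the 95. It stood at percentile 35.2, 16.6 and 27.9 in knockdown libraries, against 79.9, 59.8 and 88.0 in control libraries. Its summit held 19, 13 and 19 tags in knockdown libraries and 63, 50 and 75 tags in control libraries. These pileups were 7.57, 6.05 and 7.57 times the library's floor in knockdown and 17.9 to 21.3 times in control. The caller's −log10 q was 9.13, 4.998 and 9.19 in knockdown libraries and 55.6, 42.1 and 67.4 in control libraries. The peaks covered 390, 359 and 239 bp in knockdown libraries and 774, 835 and 823 bp in control libraries. No value of the groups overlapped in any of these measures, which describe the same peaks and are no separate evidence. By rank, 13.2% of all 62070 regions had groups that did not overlap with knockdown lower. The rank difference of the +25.4 kb region was -1.40 (SE 0.25, limma adjusted p = 0.0196). Its width difference of -1.05 did not pass (adjusted p = 0.0772).

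A second TNFAIP3 region, at +37.5 kb (chr6:137904306-137905156), followed it. It held 16, 17 and 18 tags at the summit in knockdown libraries and 68, 62 and 85 tags in control libraries. It stood at percentile 22.9, 25.9 and 24.2 in knockdown libraries and 65.0, 53.9 and 72.8 in control libraries (rank difference -1.06, SE 0.20, limma adjusted p = 0.0214). Both lie in no annotated protein-coding gene, and both calls were lost without control library 1, 2 or 3, with an adjusted p of 0.0554 to 0.0760 for the pair and differences from -1.65 to -0.94.

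Other TNFAIP3 regions did not move in the same way. Over the start, at +0.1 kb (chr6:137866475-137868275), it held 278, 225 and 267 tags in knockdown libraries and 413, 443 and 450 tags in control libraries. Relative to the other regions of its library that region stood higher in knockdown, at 73.8, 63.7 and 62.6 against 47.3, 41.5 and 49.5 in control libraries, without passing (adjusted p = 0.0831). Its highest-ranked other region, at +60.9 kb, stood at 89.2, 92.6 and 86.8 in knockdown libraries and 70.5, 74.6 and 81.2 in control libraries (adjusted p = 0.0717). The scaled covered length of the window had 7307, 8416 and 8003 bp in knockdown libraries and 7916, 8416 and 8824 bp in control libraries, and overlapped.

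**Figure D2:**
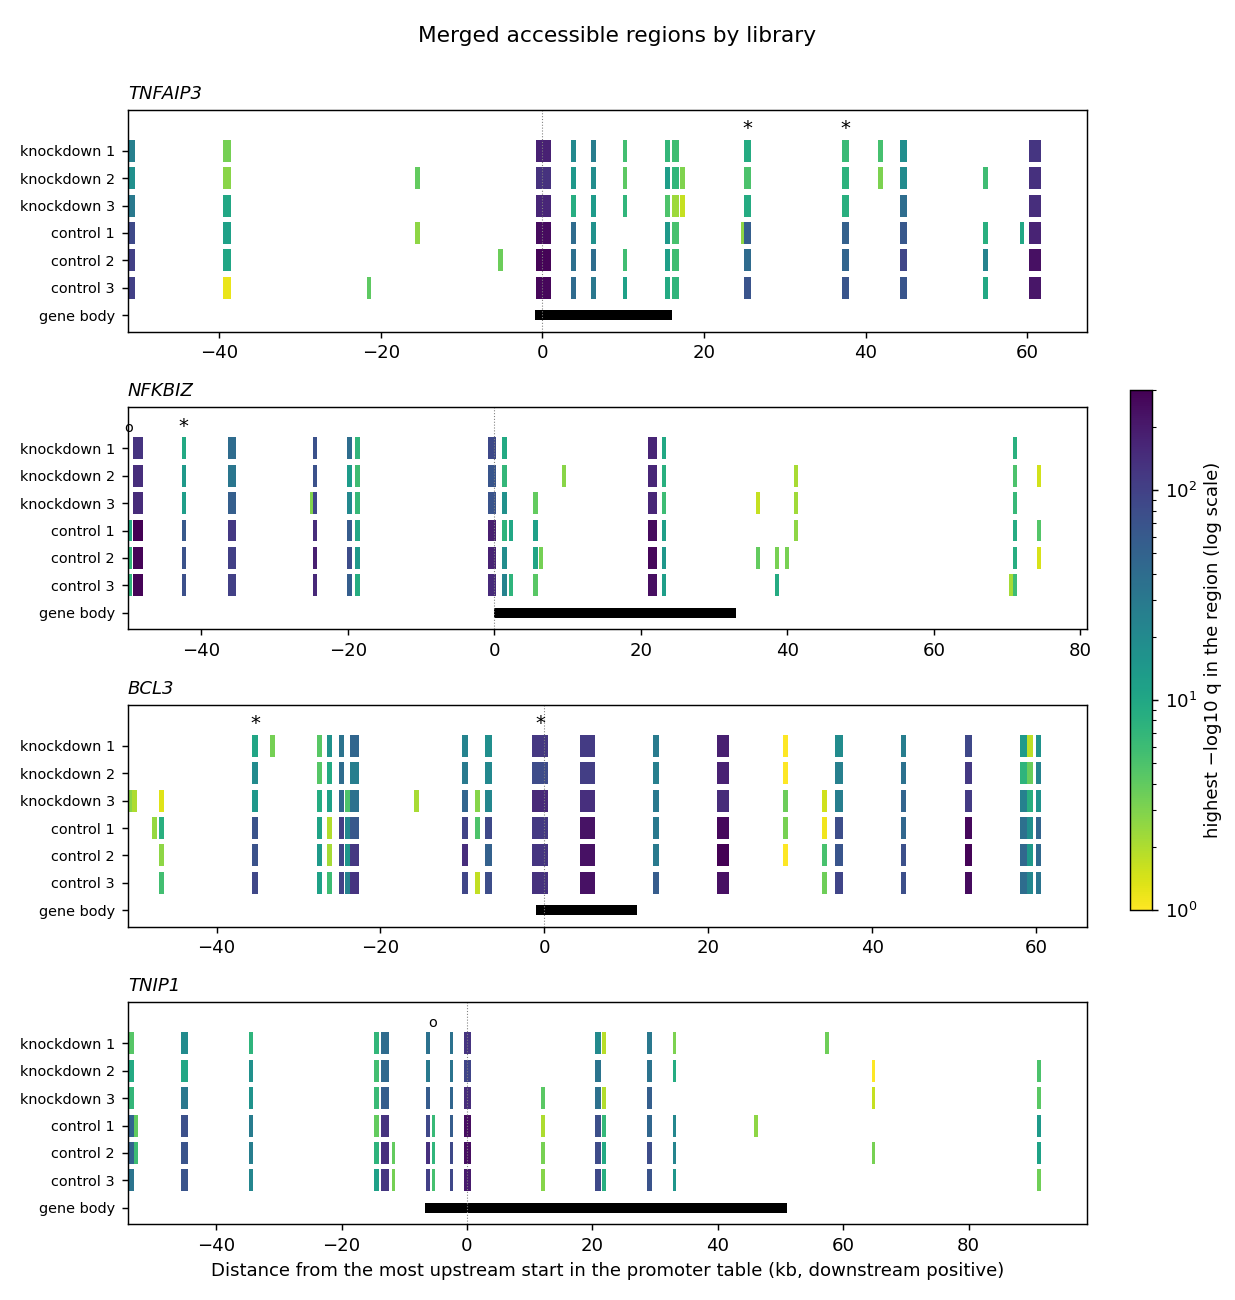
Regions around 4 genes as blocks in each library where a peak was listed, with the knockdown libraries above the control libraries, coloured by the highest −log10 q (log scale, the darkest colour for the highest values) and drawn at least 0.6 kb wide. Asterisks mark rank differences past the threshold and circles mark regions found in all 3 control and listed in 0 knockdown libraries. At TNFAIP3 the blocks at +25.4 and +37.5 kb are pale in knockdown and dark in control libraries, while the start is dark in all 6.

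NFKBIZ and BCL3 encode IkB proteins that work in the nucleus. IkB-zeta, from NFKBIZ, is needed for a second wave of NF-kB targets, and BCL3 binds p50 or p52 homodimers at DNA. At NFKBIZ a region at -42.5 kb (chr3:101785277-101785723), inside the neighbouring gene NXPE3, held 22, 24 and 26 tags in knockdown libraries and 82, 85 and 97 tags in control libraries. It stood at percentile 31.1, 45.0 and 31.8 in knockdown libraries and 66.4, 67.7 and 71.8 in control libraries (rank difference -0.85, SE 0.18, limma adjusted p = 0.0290). The call held without knockdown library 2 and was lost without any of the other 5 libraries (adjusted p 0.0547 to 0.106).

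A region at -49.9 kb of NFKBIZ (chr3:101777953-101778177) was found in all 3 control libraries, with 76, 67 and 75 tags, and listed in 0 knockdown libraries. The highest-ranked other region, at -24.5 kb, also in NXPE3, stood at 92.8, 98.5 and 96.6 in knockdown libraries and 91.4, 91.4 and 93.2 in control libraries. Regions lay over both annotated NFKBIZ starts. That at -0.3 kb held 124, 100 and 108 tags in knockdown libraries and 243, 231 and 223 tags in control libraries, and its percentiles overlapped (78.9, 71.5 and 64.2 in knockdown, 74.7, 61.3 and 61.6 in control). That at +21.6 kb, over the second start, held 259, 246 and 255 tags in knockdown libraries and 383, 390 and 380 tags in control libraries, and its rank difference of 0.49 did not pass (adjusted p = 0.0869).

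At BCL3 one region ranked lower and one higher. The region at -35.3 kb (chr19:44712984-44713820), in no annotated protein-coding gene, held 21, 28 and 26 tags in knockdown libraries and 85, 78 and 108 tags in control libraries. It stood at percentile 39.2, 62.1 and 38.7 in knockdown libraries and 76.7, 76.9 and 82.8 in control libraries (rank difference -0.89, SE 0.20, limma adjusted p = 0.0333). That call, too, held without knockdown library 2 and was lost without any of the other 5 libraries (adjusted p 0.0670 to 0.107).

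The region over the BCL3 start (chr19:44747231-44749159) was the 1 member region that ranked higher. It held 241, 187 and 290 tags in knockdown libraries and 288, 292 and 328 tags in control libraries, so the groups overlapped in tags alone. Its percentiles did not overlap, at 51.6, 36.3 and 50.5 in knockdown libraries and 17.1, 13.1 and 21.1 in control libraries (rank difference 0.86, SE 0.22, limma adjusted p = 0.0450). The call was lost when any 1 of the 6 libraries was left out (adjusted p 0.0518 to 0.149). The highest-ranked other region, at +51.7 kb over an end of CBLC, stood at 93.2, 98.2 and 94.1 in knockdown libraries and 96.1, 96.3 and 97.9 in control libraries.

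Start regions as a group stood higher in knockdown in this ranking, and the members followed that general shift. A total of 10 regions lay over a start of 9 members (NFKBIE at the gene end used, NFKBIZ at 2 starts), and all 10 differences were above 0, with a median of 0.51. Of all 9961 regions over an annotated start, 84.8% had a difference above 0, with a median of 0.34, and 7.74% were called higher. Over all 62070 regions, the groups did not overlap in 20.2% with knockdown higher and in 13.2% with knockdown lower. At NFKBIZ -0.3 kb and TRAF1 +0.1 kb the direction turned when regions were ranked by −log10 q (-0.10 and -0.14) or by tags (-0.08 and -0.13).

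**Figure D3:**
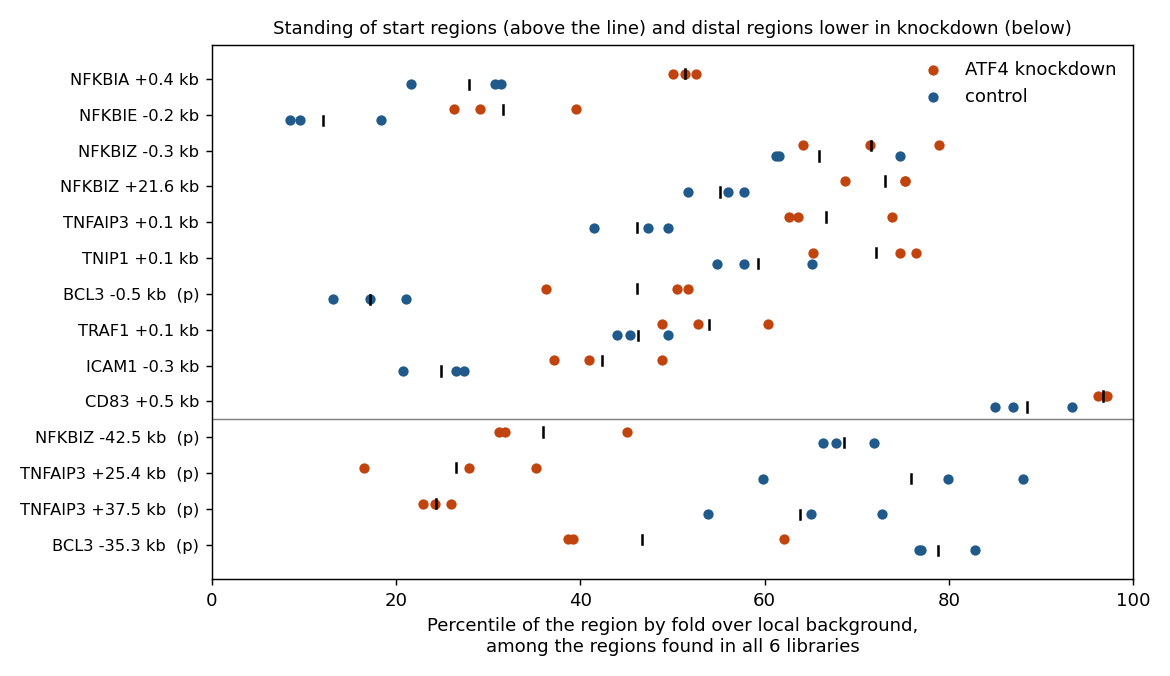
Percentile of each region by fold over local background in each library, with 1 point per library and a bar at each group mean. The 10 regions over starts are above the line and the 4 regions that ranked lower in knockdown below it; (p) marks a limma adjusted p below 0.05. Knockdown means lie right of control means at all 10 start regions. The 4 others were drawn because they ranked lower in knockdown, so that choice set their side.

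NFKBIA and NFKBIE encode IkB-alpha and IkB-epsilon, the cytoplasmic inhibitors that bind NF-kB and are made again in response to it. Over the NFKBIA start (chr14:35403386-35405232) the summit held 156, 140 and 165 tags in knockdown libraries and 216, 213 and 220 tags in control libraries. These were 62.2, 65.1 and 65.7 times the library's floor in knockdown libraries and 67.7, 76.3 and 62.5 times in control libraries. In that measure the groups overlapped. The fold over local background was 7.33, 7.96 and 8.05 in knockdown libraries and 7.72, 7.43 and 7.26 in control libraries. The region stood at percentile 51.4, 52.6 and 50.05 in knockdown libraries and 31.4, 21.7 and 30.7 in control libraries, and the rank difference of 0.62 did not pass (SE 0.19, limma adjusted p = 0.0707). The region at -11.9 kb, the highest-ranked of the others, overlapped between the groups (64.2, 73.8 and 51.4 in knockdown, 55.1, 60.7 and 52.1 in control).

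At the NFKBIE end (chr6:44264850-44265885) the summit held 113, 93 and 110 tags in knockdown libraries and 132, 136 and 198 tags in control libraries. It stood at percentile 39.5, 29.1 and 26.3 in knockdown libraries and 9.54, 8.49 and 18.3 in control libraries (rank difference 0.71, SE 0.24, limma adjusted p = 0.0935). Of its 22 regions, 14 were in all 6 libraries. The highest-ranked of these, at +47.7 kb over an end of AARS2, overlapped between the groups, at 81.0, 75.7 and 84.1 in knockdown and 89.9, 63.8 and 81.7 in control libraries.

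TRAF1, an adaptor of TNF receptors and a target of NF-kB, had 30 regions, of which 16, 15 and 13 were found in knockdown libraries and 17, 24 and 20 in control libraries. A weak region at +1.5 kb (chr9:120927480-120927774), in the gene, was found in all 3 control libraries with 47, 52 and 59 tags and listed in 0 knockdown libraries. Its −log10 q there was 2.29, 4.64 and 4.49, so control library 1 lay just over the limit of 2. Over the start (chr9:120928429-120929630) the summit held 130, 121 and 133 tags in knockdown libraries and 276, 273 and 274 tags in control libraries. Its rank did not differ beyond the spread (60.3, 52.8 and 48.9 in knockdown, 49.5, 43.9 and 45.4 in control, adjusted p = 0.496). The region at +60.3 kb over an end of PHF19 was the highest-ranked of the others, at 88.1, 86.3 and 83.6 in knockdown libraries and 69.5, 69.4 and 69.7 in control libraries. Its groups did not overlap, and the test was not passed (limma adjusted p = 0.0539).

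ICAM1 encodes a surface molecule that holds leukocytes to other cells. It had 2 regions found in all 3 control and listed in 0 knockdown libraries. The first, at -42.1 kb inside S1PR2 (chr19:10228940-10229169), held 45, 34 and 50 tags in control libraries. The second, at +4.0 kb in the gene (chr19:10274864-10275306), held 43, 43 and 48 tags in control libraries. Over the start (chr19:10269510-10272078) the region was in all 6 libraries, with 101, 93 and 100 tags in knockdown libraries and 134, 166 and 152 tags in control libraries. Its percentiles were 48.9, 41.0 and 37.2 in knockdown libraries and 20.7, 27.4 and 26.5 in control libraries (adjusted p = 0.15). The region at +62.3 kb, at ends of RAVER1 and ICAM3, was the highest-ranked of the others, at 91.9, 94.8 and 97.5 in knockdown libraries and 87.5, 89.8 and 86.1 in control libraries (adjusted p = 0.129).

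Across the 10 windows, 5 regions were thus found in all 3 control and listed in 0 knockdown libraries, and 0 the other way round. These are 2.62% of the 191, against 1.5% of all regions, and 0.102% for the other direction. Presence was not tested per region. When each list was cut to its 60000 regions with the highest −log10 q, the windows held 1 control-only and 1 knockdown-only region.

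BCL2A1 encodes BFL-1, a short-lived survival protein of the BCL-2 family. It was the 1 gene with no region over its start. A single weak summit was listed there, in knockdown library 3, with a −log10 q of 0.644, and 0 in the other 5 libraries. Only 2 of its 8 regions were found in all 6 libraries. The stronger, at +47.6 kb, lay over an end of its neighbour ST20-MTHFS and held 271, 206 and 283 tags in knockdown libraries and 389, 378 and 435 tags in control libraries. The other, at -22.5 kb in no annotated protein-coding gene, held 29, 30 and 30 tags in knockdown libraries and 49, 62 and 55 tags in control libraries, and its percentiles overlapped (60.9, 65.5 and 53.1 in knockdown, 61.3, 76.5 and 63.2 in control). A region at -7.8 kb was found in knockdown library 1 alone, with 11 tags, and in all 3 control libraries, with 32, 20 and 19 tags.

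CD83, a surface marker of activated antigen-presenting cells, had the highest-ranked start region of the members. Over its start (chr6:14117115-14118373) the summit held 145, 142 and 154 tags in knockdown libraries and 161, 184 and 174 tags in control libraries. The region stood at percentile 97.1, 96.2 and 96.9 in knockdown libraries and 85.0, 93.4 and 87.0 in control libraries (rank difference 0.62, SE 0.19, limma adjusted p = 0.0693). At +27.6 kb the percentiles overlapped, at 89.9, 77.0 and 84.5 in knockdown and 80.7, 84.8 and 82.1 in control libraries. Of the 7 regions, 5 were in all 6 libraries and 0 were control-only.

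**Figure D4:**
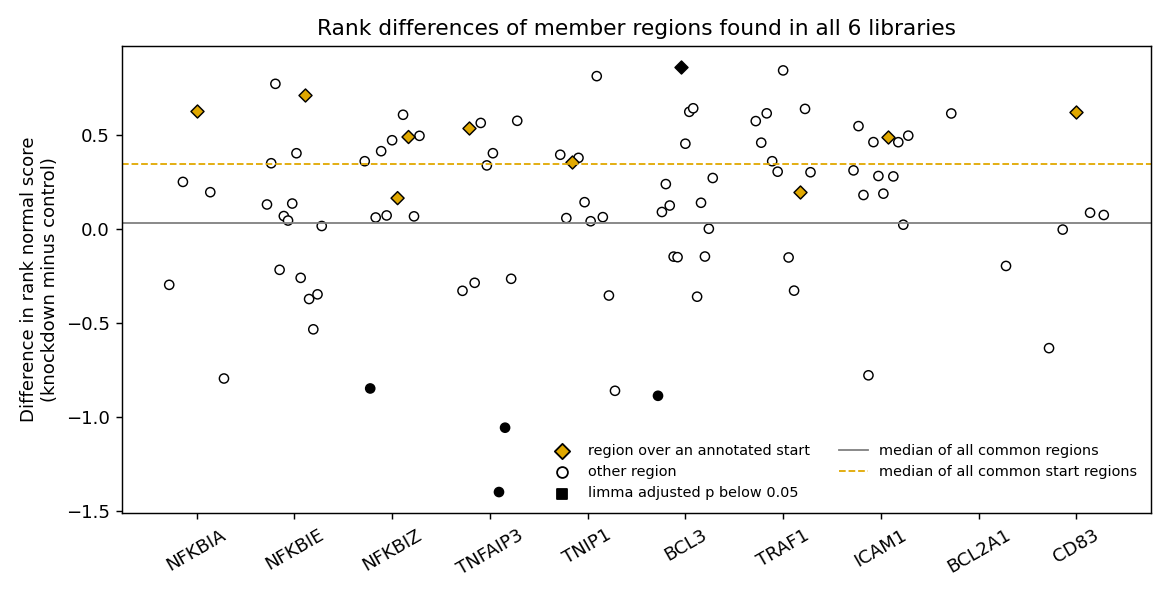
Difference in rank normal score (knockdown minus control) for the 95 member regions found in all 6 libraries, by gene, with diamonds for regions over a start and filled symbols for a limma adjusted p below 0.05. All 10 diamonds lie above 0, near or above the 0.34 median of all start regions (dashed line) except NFKBIZ -0.3 kb and TRAF1 +0.1 kb, and the 4 filled circles lie between -1.40 and -0.85.

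No region of the 62070 passed the width test after centring (smallest limma adjusted p = 0.0707), with 3309 lower and 9708 higher at an unadjusted p under 0.05. Of the 95 member regions, 3 were lower and 19 higher at that level. The smallest p of the members was at the ICAM1 start, where the log2 width difference was 0.35 (SE 0.06, adjusted p = 0.0707).

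Other genes of the pathway were called about as often as all genes. Of 55 genes in 5 lists, all of them tested, 40 (72.7%) had a covered-length difference below 0, against 58.4% of all genes. The median was -0.05, against -0.04 over all genes, and by the test 2 were lower and 1 higher. The called share was 5.45%, against 5.55% of all genes. Among the 5 NF-kB subunits, the 7 kinases, the 12 adaptors and ubiquitin enzymes and the 5 other inhibitors, 0 passed in either direction. In these lists the smallest p among subunits was at NFKB2 (log2 difference -0.12, limma adjusted p = 0.461), among kinases at TAB1 (-0.17, 0.168), and among inhibitors at TNIP2 (-0.22, 0.144), a relative of TNIP1. RELB (-0.04), IKBKB (0.14) and TNIP3 (-0.19) came next in their lists. Among adaptors, BIRC3, an E3 ligase that keeps the non-canonical branch in check, had 6059, 5935 and 5571 bp in knockdown libraries and 6890, 7077 and 8050 bp in control libraries. These did not overlap, yet the test was not passed (-0.31, SE 0.09, limma adjusted p = 0.0562). BIRC2, its neighbour on chromosome 11, shares part of that window (-0.22, adjusted p = 0.145).

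Of 26 other known targets, TNFAIP8, an inducible regulator of cell death, was lower. It had 9843, 11143 and 10742 bp in knockdown libraries and 13713, 14512 and 14794 bp in control libraries (log2 difference -0.43, SE 0.07, limma adjusted p = 0.00667). This call held when any 1 of the 6 libraries was left out (adjusted p 0.00709 to 0.0398). TNFAIP2 was lower as well, with 8730, 7898 and 9440 bp in knockdown libraries and 11184, 9907 and 11823 bp in control libraries (-0.33, SE 0.09, adjusted p = 0.0449). CXCL8, the gene of the chemokine IL-8, was higher, with 6085, 5412 and 5034 bp in knockdown libraries and 4456, 3615 and 4076 bp in control libraries (0.43, SE 0.11, adjusted p = 0.0394). The TNFAIP2 and CXCL8 calls held without knockdown library 3 and were lost without any of the other 5 (adjusted p 0.0541 to 0.179 for TNFAIP2 and 0.0514 to 0.134 for CXCL8). CXCL8 reversed, to -0.07, with unscaled lists of equal length, and did not pass at 0.03 with peaks of −log10 q 5 or more (adjusted p = 0.881), at 0.30 with 2 or more (0.159), at 0.30 unscaled (0.0642) and at 0.85 in both 10 kb windows (0.357 and 0.442). The TNFAIP2 call was also lost with no filter (0.0551), with peaks of −log10 q 2 or more (0.0533) and in both 10 kb windows (0.236 and 0.305), and the TNFAIP8 call around gene ends (0.388).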

How the data were processed

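ATAC-seq peak lists of 6 KMS-11 libraries were analysed, 3 per group. Per the submitters' processing notes the authors used MACS2 and hg38, and each library has its own list. The sources used here do not state its version, settings, the aligner or read filters; a read extension would widen all peaks of a library alike. The deposited lists hold the fold (a ratio) over local background, −log10 p, −log10 q and a score of 10 times −log10 p capped at 1000, used only as a check. Fold and q move with depth, so regions were compared by rank. From fold and −log10 p, the tags at each summit were recovered (all summits within 0.01).

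Peaks were merged over libraries (at least 1 bp). Covered length was tested as log2(scaled bp + 200) for genes covered in at least 3 libraries, with a fold then understated for sparse windows. Rank, width (log2, centred) and covered length were fitted with limma 3.58.1 (R 4.3.3, trend and robust options). These steps were tested on simulated data. Intervals on single peaks are not given, since PCR copies cannot be told from molecules. Members, gene lists and motifs were chosen with earlier results of these data known. Named regions were those over starts, the highest-ranked other region, control-only or knockdown-only regions and calls. NFKBIZ has 5 by its 2 starts. Further regions named at TNIP1 and BCL2A1 fell outside this rule and were picked with their values known. Of the other lists, up to 4 called genes or the 2 with the smallest p were named. RefSeq gene positions (without strand) and promoters (GRCh38.p14) were used, without a genome sequence.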

Additional observations from a re-analysis of the deposited data

How the results depend on the processing

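A region absent from a list may be open below the caller's limit at this depth. The cause of each change below was not tested. Of 468 settings of single genes and regions, 355 kept side and direction and 42 changed sign; 51 lost a call, 1 of them with a change of sign, and 23 gained one, 2 of them with a change of sign. Covered length called 525 genes lower and 567 higher; unscaled 4136 lower with 4 members, unscaled equal lists 4177 lower and 48 higher with 3 members lower, q of at least 2 gave 194 lower and 149 higher, q of at least 5 gave 905 lower and 3606 higher with 0 members lower and 2 higher, the gene body with 10 kb 123 lower and 126 higher, and 10 kb around gene ends 0 in both directions by limma (1689 lower and 910 higher at an unadjusted p under 0.05), with 0 members lower in both. Leaving out each library gave 94 to 584 lower, 187 to 551 higher and 0 to 1 members lower. The median of all genes was -0.04, and -0.16 unscaled, -0.19 with equal lists, 0.03 at q of at least 2 and 0.10 at q of at least 5.

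Sign changes in covered length were at q of at least 2 NFKBIA 0.027, NFKBIZ 0.0025, TNFAIP3 0.018, BCL3 0.015, ICAM1 0.10, NFKB2 0.026, RELB 0.010 and IKBKB -0.061, and at q of at least 5 NFKBIZ 0.12, BCL3 0.13, TRAF1 0.13, ICAM1 0.25, NFKB2 0.17, RELB 0.16, TAB1 0.15 and IKBKB -0.10. Unscaled, NFKBIE was -0.072 and CD83 -0.11, and with equal lists NFKBIE -0.19, CD83 -0.17, IKBKB -0.17 and CXCL8 -0.073. In both narrower windows NFKBIA was 0.014, BCL3 0.0065, CD83 -0.075, TNIP2 0.019 and NFKB2 0.00016, and around ends TNIP3 0.058. Leaving out libraries, NFKBIE ran from -0.0057 to 0.13, BCL2A1 from -0.15 to 0.033 and CD83 from -0.057 to 0.054. TNIP1 kept its sign throughout and lost its call at q of at least 5 (adjusted p = 0.183) and in both narrower windows (0.106 and 0.146).

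Ranking by recovered tags, chosen after seeing the data, called 4031 regions lower and 3607 higher, with 8 members lower and 4 higher. Ranking by q called 2718 regions lower and 2603 higher, with 6 members lower and 4 higher. NFKBIZ -0.3 kb turned to -0.10 by q and -0.084 by tags, and TRAF1 +0.1 kb to -0.14 and -0.13. Leaving out libraries gave 44 to 1500 regions lower and 13 to 818 higher, with 0 to 5 members lower and 0 higher. TNFAIP3 +25.4 kb has no value where q of at least 5 was asked in all 6. Width without centring called 234 lower, 1 of them a member, and 3 higher; counting peaks with q of at least 5 it called 16 lower and 3 higher. Control-only regions numbered 3247, and 1211 at q of at least 5 and 1389 in equal lists with 1 member; knockdown-only regions 221, and 1098 when any listed peak counted, 9 at q of at least 5 and 698 in equal lists with 1 member. Leaving out libraries gave 4505 to 5804 control-only with 6 to 9 members and 336 to 1132 knockdown-only with 0 to 1.

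Same-numbered libraries deviated together weakly at most (correlations of at most 0.0586), and the numbers were not taken to pair them. With the replicate block, covered length called 632 lower and 672 higher, rank 1449 lower and 723 higher with 0 members higher, where the BCL3 start lost its call (adjusted p = 0.0613). Each knockdown library correlated best with its own number in covered length and width, not in rank.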

Other observations

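The windows of the 10 genes also hold regions over ends of 16 neighbouring genes that were found in all 6 libraries. These neighbours were picked by position and not by value, and 18 such regions were measured. In none of the 18 did the rank difference pass the limma test, which 6.23% of all 62070 regions passed in either direction. Around NFKBIE, a region over an end of SLC29A1, a nucleoside transporter, at -41.8 kb stood at percentile 30.4 ± 4.90 in knockdown libraries and 10.1 ± 2.76 in control libraries (SD, n = 3 each, adjusted p = 0.0681). Another over an end of SLC29A1, at -46.0 kb, stood at 27.6 ± 7.22 in knockdown libraries and 23.4 ± 4.58 in control libraries (adjusted p = 0.745). The region over an end of HSP90AB1, a chaperone gene, at -18.6 kb stood at 52.0 ± 3.73 in knockdown libraries and 50.3 ± 6.56 in control libraries (adjusted p = 0.899). In the ICAM1 window, the region over an end of MRPL4, a protein of mitochondrial ribosomes, at -19.0 kb stood at 92.1 ± 0.587 in knockdown libraries and 83.0 ± 1.83 in control libraries (adjusted p = 0.0989). That of ICAM5, at +18.6 kb, stood at 17.2 ± 5.30 in knockdown libraries and 10.9 ± 2.21 in control libraries (adjusted p = 0.483).

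Several distal regions of other members lay just outside the threshold with lower ranks in knockdown. At NFKBIA -17.7 kb the −log10 q was 7.4, 12.2 and 8.3 in knockdown libraries and 49.2, 43.4 and 30.6 in control libraries (rank difference -0.80, limma adjusted p = 0.0552). At TNIP1 -53.6 kb, inside ANXA6, it was 4.5, 9.5 and 6.8 in knockdown libraries and 49.0, 50.3 and 33.5 in control libraries (-0.86, adjusted p = 0.0556). At CD83 -42.0 kb it was 37.3, 35.0 and 24.4 in knockdown libraries and 108.5, 97.8 and 98.5 in control libraries (-0.64, adjusted p = 0.0740). These 3 regions were chosen after their values were seen, and most member regions went the other way. Of the 85 away from a member's start, 58 (68.2%) had a rank difference above 0, with a median of 0.13. Of the 52109 regions over no annotated start, 46.3% did, with a median of -0.04. The 85 include regions over starts of neighbouring genes. Some lay just outside the threshold with higher ranks, such as NFKBIE -41.8 kb (0.77, limma adjusted p = 0.0681).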
